A study of Mus musculus with 6 samples.

Results

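The genes examined here are 48 genes of distal mouse chromosome 4 that lie around Park7, the gene deleted in the knockout mice of the study. They were given as a list of symbols and found by matching each symbol, current or older, to probe sets that the array annotation assigns to exactly 1 gene. All 48 were found, 45 by their current symbol and 3 by an older one, among 23152 genes with a single symbol, and they held 625 of the 269751 probe sets. In gene order 32 of them lay on the proximal side of Park7 (toward the centromere) and 16 on the distal side (toward the telomere).

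Regulatory T cells (Treg, CD4+CD25high) were sorted from the spleens of 3 DJ-1-/- mice (KO) and 3 DJ-1+/+ littermates (WT). All 6 were untreated males aged 45 weeks from a specific-pathogen-free facility, and each array was taken as 1 mouse. DJ-1 is the protein that Park7 encodes, and the labels give the genotype of the mouse, with no restriction to Treg. How the allele was made, its strain of origin and the number of backcrosses are not given in the sources used here.

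Genes that sit close together on a chromosome tend to be inherited together, so mice that carry a targeted allele usually carry the neighbouring DNA of the same chromosome as well. Loss of Park7 and any other difference in the DNA inherited with it cannot be told apart in a comparison of KO with WT mice. The segment around Park7 is rich in genes and holds no single pathway: it encodes a clock protein, transcriptional regulators, F-box proteins, a kinesin, a complement protease and enzymes of several organelles, most of which are known from tissues other than Treg.

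Values are given as log2(intensity + 16), and a gene's value is the median of its probe sets. A difference is KO minus WT on that scale, in log2 units, and understates the change of dim genes. The deleted gene, Park7, had 6.06, 5.96 and 5.71 in KO arrays, against 9.48, 9.27 and 9.70 in WT arrays (limma adjusted p = 2.06e-05), so its level matched the labels. Median intensity was 88.6 to 99.9 in KO arrays and 95.3 to 100.2 in WT arrays, and KO replicate 1 stood apart, with the lowest mean correlation to the other arrays (0.951, against 0.957 to 0.964). The Treg markers Foxp3, Il2ra, Ctla4, Ikzf2, Cd4, Cd3e and Tnfrsf18 were bright in all arrays, with a mean of 11.90 to 12.00 in KO arrays and 12.01 to 12.03 in WT arrays. Within this list Foxp3 was higher in KO arrays (0.06), Ikzf2 and Cd3e were lower (-0.20 and -0.19), and the others had overlapping groups. The mean over 6 of 6 macrophage and monocyte markers was 6.31 to 6.45 in KO arrays and 6.61 to 6.86 in WT arrays. Of these Csf1r and C1qc were lower in KO arrays (-0.54 and -0.47), and the others had overlapping groups. Adgre1 was too dim to be tested, and the KO mean of Csf1r (5.84) lay under the level set by the filter on low values. The mean over 2 CD8 T cell markers was 7.36 to 7.39 in KO arrays and 7.47 to 7.59 in WT arrays. Of these Cd8b1 was lower in KO arrays (-0.30), while Cd8a had overlapping groups (0.03). In these 3 lists the means of the groups did not overlap, and their part in the results was not tested. The means overlapped in the lists for B cells, plasma cells, NK cells, dendritic cells, neutrophils, and erythroid cells and platelets. In sorted bulk samples a smaller share of cells that express a gene and less RNA per cell cannot be told apart.

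Of the 48 genes 42 passed the filter on low values and were tested. 3 of the 42 passed an adjusted p of 0.05 in limma over all tested genes, which is 7.14% of them, against 0.274% of all 13891 tested genes. Gm13157, Miip and Fbxo44 fell in KO Treg, and no member rose. Of all tested genes 0.266% fell and 0.0072% rose. Fbxo44 passed the filter through its WT arrays, as its KO mean (5.60) lay under the filter level of 5.90. So did 2010015L04Rik (KO mean 5.36), while Fbxo2 passed it through its KO arrays (WT mean 5.85). These genes are also counted among the members without overlap. The groups did not overlap in 17 of the 42 (40.5%), 9 higher and 8 lower in KO, against 17.4% of all tested genes, 6.1% higher and 11.3% lower. They did so by at least 0.5 log2 units in 12 members (28.6%), 5 higher and 7 lower, against 4.21% of all tested genes, 0.821% higher and 3.39% lower. At an unadjusted p of 0.05, 7 were higher and 8 lower in KO (35.7% together), against 10.7% of all tested genes, 2.99% higher and 7.67% lower. The difference was above 0 in 21 of the 42 members and in 40.3% of all tested genes. The median difference was 0.02 over the 42 members and -0.05 over all tested genes. The median size of a difference was 0.25 over the members and 0.15 over all tested genes, so the members lay farther from 0 in both directions rather than to one side. The list was drawn up with results of these arrays known, so these shares describe the list and do not estimate how often any neighbour of Park7 differs.

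**Figure D1:**
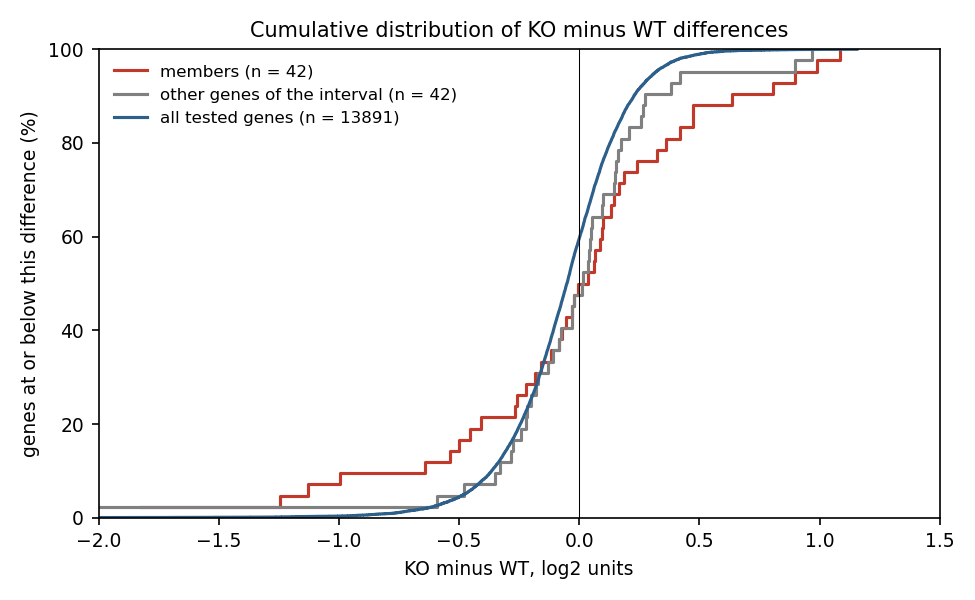
Cumulative share of genes (%, y axis) at or below each KO minus WT difference (log2 units, x axis) for the 42 tested members, the 42 other tested genes of the same interval and all 13891 tested genes. The curve of the members is the flattest, with more genes at both ends; Gm13157 enters at -1.82 and Masp2 closes it at 1.08, and values under -2, among them Park7 and Tnfrsf9, lie outside the axis.

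The 3 members that fell and Kif1b, the member with the most probe sets, are shown by the 250 bases before their most upstream start site in RefSeq (GRCm38.p6), because these windows carry the genes' own transcription start context. All 4 lie on the minus strand of chromosome 4, and each sequence is read 5′ to 3′ on that strand. Capitals mark the GC box GGGCGG or its reverse complement CCGCCC, and the CCAAT box CCAAT or its reverse complement ATTGG. The windows are chr4:147809789-147810038 for Gm13157 (now Zfp984), chr4:147868720-147868969 for Miip, chr4:148160095-148160344 for Fbxo44 and chr4:149307734-149307983 for Kif1b.
Gm13157: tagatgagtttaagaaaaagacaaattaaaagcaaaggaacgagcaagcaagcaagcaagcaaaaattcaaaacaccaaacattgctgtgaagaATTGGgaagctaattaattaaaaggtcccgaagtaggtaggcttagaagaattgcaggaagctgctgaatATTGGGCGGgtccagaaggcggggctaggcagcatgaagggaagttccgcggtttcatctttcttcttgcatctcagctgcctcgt
Miip: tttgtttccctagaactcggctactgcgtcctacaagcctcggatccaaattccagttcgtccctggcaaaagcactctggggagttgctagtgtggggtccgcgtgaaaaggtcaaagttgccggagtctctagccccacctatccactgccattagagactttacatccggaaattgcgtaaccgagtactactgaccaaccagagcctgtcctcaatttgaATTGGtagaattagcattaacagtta
Fbxo44: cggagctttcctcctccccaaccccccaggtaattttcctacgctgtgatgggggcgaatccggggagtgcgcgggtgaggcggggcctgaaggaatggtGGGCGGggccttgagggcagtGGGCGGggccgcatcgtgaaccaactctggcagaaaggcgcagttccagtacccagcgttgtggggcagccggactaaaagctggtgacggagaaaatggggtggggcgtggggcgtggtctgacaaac
Kif1b: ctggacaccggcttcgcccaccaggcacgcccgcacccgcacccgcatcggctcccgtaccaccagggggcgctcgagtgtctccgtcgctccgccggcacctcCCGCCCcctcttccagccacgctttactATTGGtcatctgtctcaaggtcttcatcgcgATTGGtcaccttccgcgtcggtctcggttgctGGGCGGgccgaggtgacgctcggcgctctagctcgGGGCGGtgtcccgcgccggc
Of the 4 windows that of Kif1b is the richest in CpG, with 32 CpG dinucleotides and 70.0% G or C, and holds 3 GC boxes and 2 CCAAT boxes. Fbxo44 has 17 CpG, 2 GC boxes and no CCAAT box. Gm13157 has 7 CpG, 1 GC box and 2 CCAAT boxes, of which 1 overlaps the GC box, and Miip has 10 CpG, 1 CCAAT box and no GC box. None of the 4 windows holds the TATA box TATAAA on either strand. Over the 42 of 48 members with a promoter in the table, a GC box was found in 71.4%, a CCAAT box in 28.6% and TATAAA in 7.14%, against 33%, 34.5% and 13% of the same windows of all 27025 genes in that table. A match of letters is a description and does not show binding, and the 3 genes that fell shared no one of these motifs in all their windows.

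Members that encode regulators of transcription and chromatin had the largest median size of a difference among the groups of members by role, 0.49 log2 units. Of 8 tested, 1 fell, none rose and 7 did not pass, and the groups did not overlap in 6. Over all tested genes 0.274% passed, the groups did not overlap in 17.4% and the median size was 0.15. The counts of each role below stand beside these shares, and whether roles differ was not tested. Gm13157, a zinc finger gene now named Zfp984, had 6.16, 6.93 and 6.86 in KO arrays, against 8.43, 8.37 and 8.61 in WT arrays. Every KO array lay well below every WT array. The difference was -1.82 (SE 0.21, limma adjusted p = 0.0154, n = 3 each), which is 3.54-fold lower on this scale. All 4 of its probe sets with a single symbol were lower in KO, with differences of -2.43 to -0.95, and in each the groups did not overlap. For Gm13157 another 2 probe sets, named for it and a further gene, were not used. Zfp933, its neighbour in a cluster of zinc finger genes, had 8.12, 8.71 and 8.58 in KO arrays, against 7.39, 7.76 and 7.58 in WT arrays. KO arrays lay above WT arrays, and the difference of 0.90 (SE 0.18) did not pass (limma adjusted p = 0.114). Its 4 probe sets did not move as one: 3 were higher in KO, by up to 1.29, and 1 was lower by 0.34 with no overlap. Zinc finger genes of such clusters resemble each other in sequence, so the signal of Gm13157 and Zfp933 is uncertain to the extent that probes bind more than 1 of them.

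Phf13, a chromatin reader with a PHD finger, had 7.81, 7.78 and 7.70 in KO arrays, against 8.29, 8.05 and 8.55 in WT arrays (-0.54, SE 0.16, limma adjusted p = 0.270). Casz1, a zinc finger transcription factor, had 6.24, 6.10 and 6.11 in KO arrays, against 6.63, 6.70 and 6.62 in WT arrays (-0.50, SE 0.13, limma adjusted p = 0.209). For both genes the lowest WT array was above the highest KO array. Per3, a period protein of the circadian clock, is one of the genes nearest to Park7. It had 6.74, 7.07 and 7.12 in KO arrays, against 6.16, 6.71 and 6.64 in WT arrays (0.47, SE 0.18, limma adjusted p = 0.398). The lowest KO array exceeded the highest WT array by a narrow margin, and 23 of the 24 Per3 probe sets were higher in KO. Rere, an atrophin family corepressor, had 10.48, 10.22 and 10.04 in KO arrays, against 9.99, 9.90 and 9.90 in WT arrays (0.32, SE 0.15, limma adjusted p = 0.50). KO arrays lay above WT arrays again, and 22 of 25 probe sets were higher. The telomere-binding zinc finger protein Zbtb48 (0.14) and the THAP domain gene Thap3 (-0.27) had overlapping groups. Camta1, a calmodulin-binding transcription activator, the remodeller Chd5 and the repressor Hes2 were too dim to be tested.

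**Figure D2:**
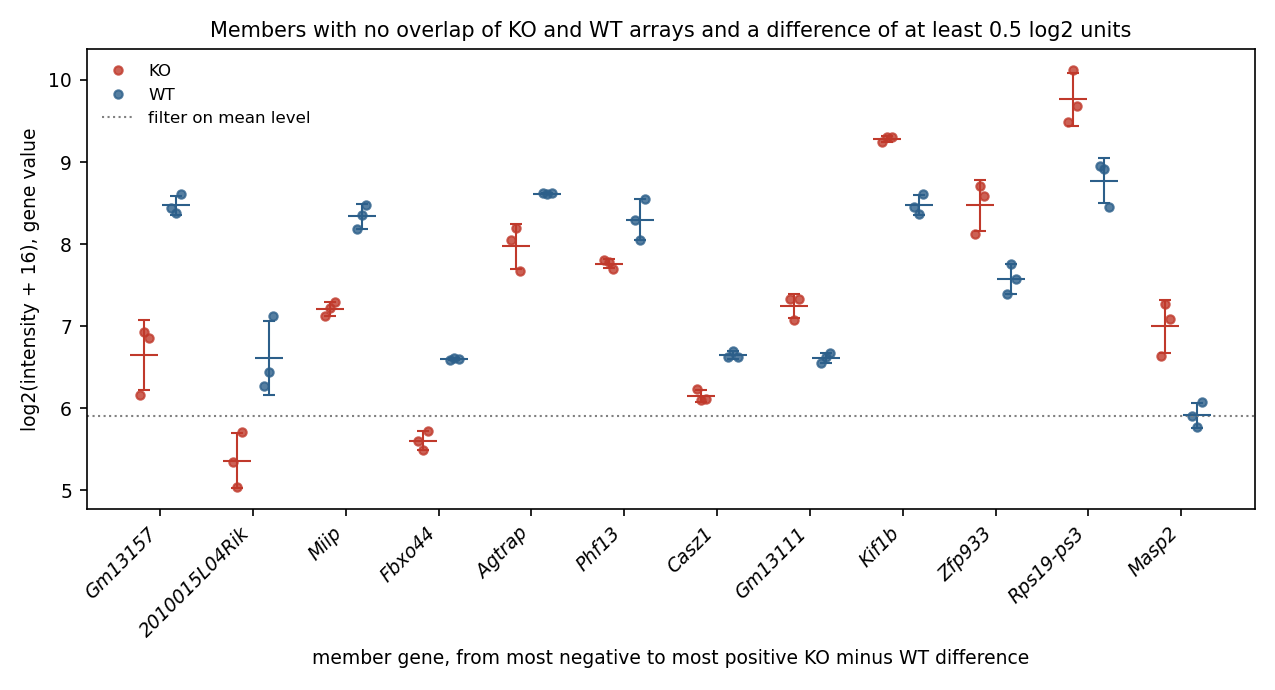
Gene values in log2(intensity + 16) (y axis) of the 12 members whose groups did not overlap and differed by at least 0.5 log2 units (x axis), each with the 3 KO arrays on the left and the 3 WT arrays on the right; horizontal bars are means, error bars SD, and the dotted line the filter on the mean level. KO points lie below WT points in 7 genes, from Gm13157 to Casz1, and above them in 5, from Gm13111 to Masp2.

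Among adaptors of ubiquitin ligases and cell cycle genes, 1 of 6 tested fell, none rose and 5 did not pass. Fbxo44, an F-box protein that brings substrates to SCF ubiquitin ligases, had 5.60, 5.49 and 5.72 in KO arrays, against 6.59, 6.61 and 6.60 in WT arrays. The WT arrays were almost equal to each other and all above the KO arrays. The difference was -0.996 (SE 0.13, limma adjusted p = 0.02, n = 3 each). The KO mean (5.60) lay under the filter level of 5.90, so the size of this difference is uncertain. Of its 13 probe sets 10 were lower in KO, and 7 of them had no overlap.

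Fbxo44 stands between 2 relatives, the glycoprotein-binding F-box genes Fbxo6 and Fbxo2, neither of which passed. Fbxo2 starts 574 bases from Fbxo44 on the opposite strand, so the start sites face away from each other. Fbxo2 had 6.17, 6.26 and 6.21 in KO arrays, against 6.14, 5.54 and 5.88 in WT arrays (0.36, SE 0.17, limma adjusted p = 0.494). Its WT mean (5.85) lay under the filter level of 5.90. Of its 6 probe sets 5 were higher in KO, 1 of them without overlap, and 1 was lower without overlap. Fbxo6 had 8.20, 7.76 and 7.92 in KO arrays, against 8.23, 8.19 and 8.24 in WT arrays (-0.26, SE 0.15, limma adjusted p = 0.590). KO arrays were thus above WT arrays by a narrow margin for Fbxo2, below them for Fbxo44, and overlapping for Fbxo6, with KO replicate 1 inside the range of WT. Whether the differences of these 3 genes differ from each other was not tested. The SOCS box adaptor Spsb1 (0.04), the cullin adaptor Klhl21 of mitosis (-0.16) and Mad2l2, a subunit of the DNA polymerase zeta complex (-0.08), had overlapping groups. Nmnat1, which makes NAD in the nucleus, and Lzic, which carries a leucine zipper, are the other pair of members that start back to back, 19 bases apart, and they differed by 0.17 and 0.07.

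In signalling, cell death and immune defence, 1 of 9 tested members fell, none rose and 8 did not pass. Miip, an inhibitor of cell migration and invasion, had 7.12, 7.22 and 7.29 in KO arrays, against 8.18, 8.36 and 8.48 in WT arrays. The groups were separated by more than the range within either. The difference was -1.13 (SE 0.14, limma adjusted p = 0.0176, n = 3 each), which is 2.19-fold lower on this scale. Of its 15 probe sets 14 were lower in KO, 11 without overlap, and the differences ran from -2.62 to 0.18.

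Masp2 encodes a serine protease of the lectin pathway of complement, which the liver secretes. It had 6.64, 7.27 and 7.08 in KO arrays, against 5.90, 5.77 and 6.07 in WT arrays. KO arrays lay above WT arrays, and the difference of 1.08 (SE 0.18) was the most positive of all members and just missed the threshold (limma adjusted p = 0.0528). Without KO replicate 1, the array that stood apart, it was 1.26 and passed (limma adjusted p = 0.0180), and in the 5 fits that left out another array it did not pass (0.0942 to 0.274). Of 11 Masp2 probe sets 10 were higher in KO, 8 of them without overlap and by up to 2.97 log2 units. The gene overlaps Tardbp, which encodes the RNA-binding protein TDP-43, and 3 probe sets named for both genes were not used. Tardbp itself had 8.29, 8.62 and 8.90 in KO arrays, against 8.63, 8.79 and 8.56 in WT arrays, a difference of -0.06 with overlapping groups.

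Agtrap, which binds the angiotensin II receptor, had 8.06, 8.20 and 7.67 in KO arrays, against 8.62, 8.61 and 8.63 in WT arrays (-0.64, SE 0.16, limma adjusted p = 0.198). KO arrays were lower and more spread than WT arrays. Errfi1, a feedback inhibitor of the EGF receptor, lies next to Park7 on its proximal side. It had 7.54, 8.52 and 7.74 in KO arrays, against 8.16, 8.11 and 8.09 in WT arrays (-0.19, SE 0.23, limma adjusted p = 0.803). KO arrays lay on both sides of the WT arrays, and the sign turned without KO replicate 1 (0.011). The vasoactive peptide gene Uts2, which overlaps Per3, had 6.30, 6.12 and 6.25 in KO arrays, against 6.24, 6.03 and 5.84 in WT arrays (0.19, SE 0.15, limma adjusted p = 0.694). Ctnnbip1, an inhibitor of beta-catenin (0.24), the orphan receptor Gpr157 (0.06), Lzic (0.07) and Dffa, the inhibitor of an apoptotic nuclease (-0.12), also had overlapping groups.

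Of 6 tested members for trafficking, cytoskeleton and organelles, none passed, though 2 (33.3%, against 17.4% of all tested genes) had groups that did not overlap. Kif1b, a kinesin motor that carries organelles along microtubules, had 9.24, 9.30 and 9.30 in KO arrays, against 8.45, 8.36 and 8.61 in WT arrays. KO arrays were almost equal to each other and all above WT arrays. The difference was 0.81 (SE 0.13), and its adjusted p of 0.0519 in limma just missed the threshold. All 40 of its probe sets were higher in KO, by 0.18 to 1.60 log2 units with a median of 0.89, and in 31 of the 40 the groups did not overlap. These probe sets share arrays and a transcript and are not replicates of the comparison. Under 11 other settings with all arrays, Kif1b passed in 8 and its adjusted p in limma was 0.00971 to 0.0854, and it passed in 0 of the 6 fits that left out 1 array (0.0624 to 0.284). Masp2 passed in 6 of 9 such settings and Zfp933 in 5 of 11. With quantile normalization or with median centring all 3 of these genes passed as higher in KO, and 3 members passed as lower. Over all tested genes 0.396% passed with quantile normalization and 0.374% with median centring, against 0.274% in the main fit.

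2010015L04Rik, a cilia- and flagella-associated gene now named Cfap74 and the most distal member, had 5.34, 5.04 and 5.71 in KO arrays, against 6.27, 6.44 and 7.12 in WT arrays. KO arrays lay below WT arrays (-1.25, SE 0.24, limma adjusted p = 0.0987), but the KO mean was under the filter level, so the size is uncertain. Of its 23 probe sets 17 were lower, 11 of them without overlap, and the differences ran from -3.05 to 0.43. Vamp3, a SNARE of recycling endosomes near Park7, had 8.31, 9.05 and 8.74 in KO arrays, against 8.98, 9.18 and 9.16 in WT arrays (-0.41, SE 0.19, limma adjusted p = 0.495). KO replicate 2 lay among the WT arrays, and the other KO arrays below them. The mitofusin Mfn2 (-0.00), the peroxisomal docking protein Pex14 (-0.07) and the actin bundler Espn (0.13) had overlapping groups.

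**Figure D3:**
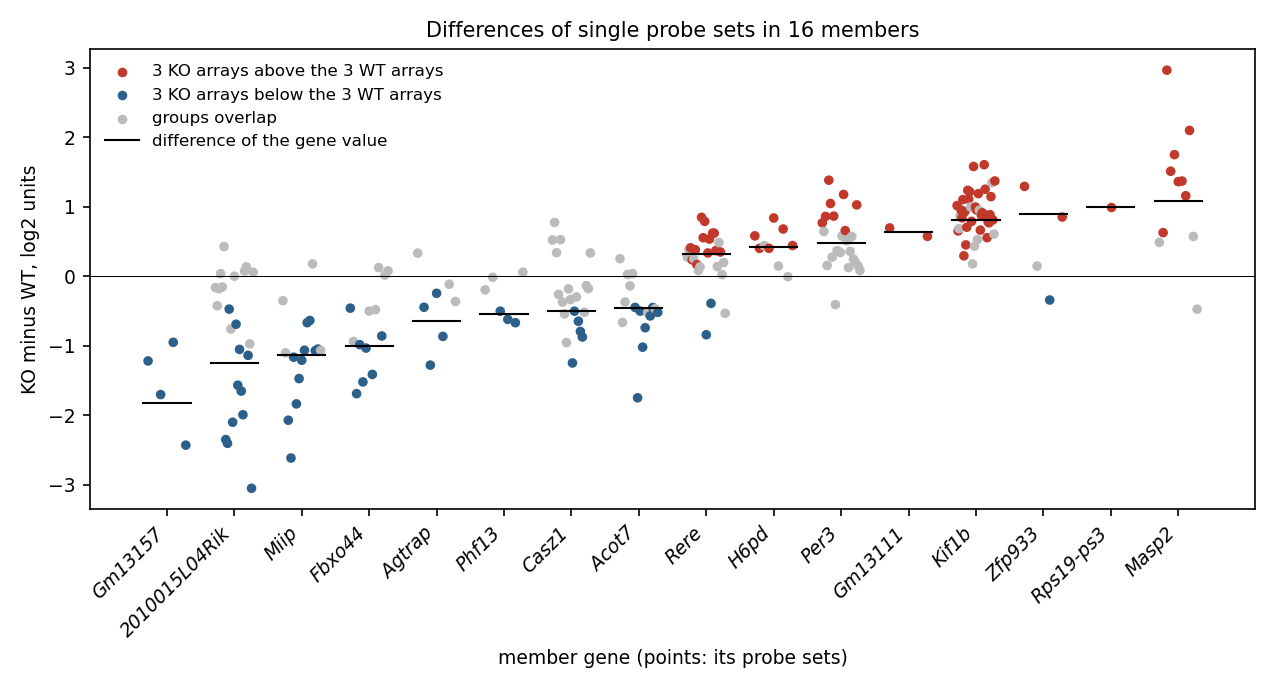
KO minus WT difference in log2 units (y axis) of each probe set (points) in 16 members (x axis), coloured by whether the 3 KO arrays lie above or below the 3 WT arrays or overlap with them; black lines are the differences of the gene values. All 40 points of Kif1b lie above 0 and all 4 of Gm13157 below it, while 2010015L04Rik, Casz1 and Rere are among the members with points on both sides.

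The tested RNA and ribosome members were Rps19-ps3, Gm13111, Nol9, Exosc10 and Tardbp, and none of the 5 passed. Rps19-ps3, a transcribed pseudogene of a ribosomal protein gene that lies next to Zfp933, was measured by 1 probe set. Another 2 probe sets named for it and a further gene were not used. Rps19-ps3 had 9.49, 10.12 and 9.68 in KO arrays, against 8.96, 8.91 and 8.46 in WT arrays (0.99, SE 0.20, limma adjusted p = 0.112). KO arrays lay above WT arrays, but a pseudogene shares sequence with its parent gene, so the source of the signal is uncertain. Gm13111, a long non-coding RNA now named Prdm16os, had 7.33, 7.08 and 7.33 in KO arrays, against 6.55, 6.62 and 6.67 in WT arrays (0.63, SE 0.14, limma adjusted p = 0.132). Both of its probe sets were higher in KO without overlap. Nol9, a kinase of ribosomal RNA processing (0.10), and Exosc10, a nuclease of the nuclear exosome (0.10), had overlapping groups.

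Of 8 tested members for metabolism and transport, none passed and none differed by 0.5 log2 units. H6pd, which makes NADPH in the endoplasmic reticulum, had 9.01, 8.79 and 8.97 in KO arrays, against 8.43, 8.67 and 8.41 in WT arrays (0.42, SE 0.14, limma adjusted p = 0.329). Acot7, an acyl-CoA thioesterase, had 7.63, 8.27 and 8.13 in KO arrays, against 8.47, 8.44 and 8.49 in WT arrays (-0.46, SE 0.18, limma adjusted p = 0.398). These were the only 2 of the 8 (25%, against 17.4% of all tested genes) whose groups did not overlap, and they lay in opposite directions. Srm, the spermidine synthase (0.47), had 1 WT array (10.17) above all KO arrays. Nmnat1 (0.17), the retinoid-binding Rbp7 (0.09), the methyltransferase Icmt (-0.02), the lysyl hydroxylase Plod1 (-0.03) and the mitochondrial nucleotide carrier Slc25a33 (-0.22) had overlapping groups. The fructose transporter Slc2a5, the sugar transporter Slc45a1 and the secreted carbonic anhydrase Car6 were too dim to be tested. Slc45a1, close to Park7, had 5.66, 5.20 and 5.48 in KO arrays, against 5.13, 5.50 and 5.62 in WT arrays.

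The members with the largest differences were not those nearest to Park7. This holds for the members alone: Tnfrsf9, the next protein-coding gene after Park7 and not a member, differed by -2.40. The members were chosen with results of these arrays known, so their order by distance describes the list only. Of the 15 tested members within 15 protein-coding genes of Park7, none passed, 4 (26.7%) had no overlap and the differences were -0.54 to 0.47. Of the 22 tested members farther on the proximal side, 3 passed (13.6%), 10 (45.5%) had no overlap and the differences were -1.82 to 1.08. Of the 5 tested members farther away on the distal side, none passed, 3 (60%) had no overlap and the differences were -1.25 to 0.63. Over all tested genes 0.274% passed and 17.4% had no overlap. Whether these parts of the list differ from each other was not tested. Fbxo44, Miip and Gm13157, the 3 that fell, lay 38, 51 and 53 protein-coding genes from Park7. Neighbouring genes pointed in opposite directions at the proximal end, where Gm13157 and Miip were lower in KO and Zfp933 and Rps19-ps3 between them were higher.

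**Figure D4:**
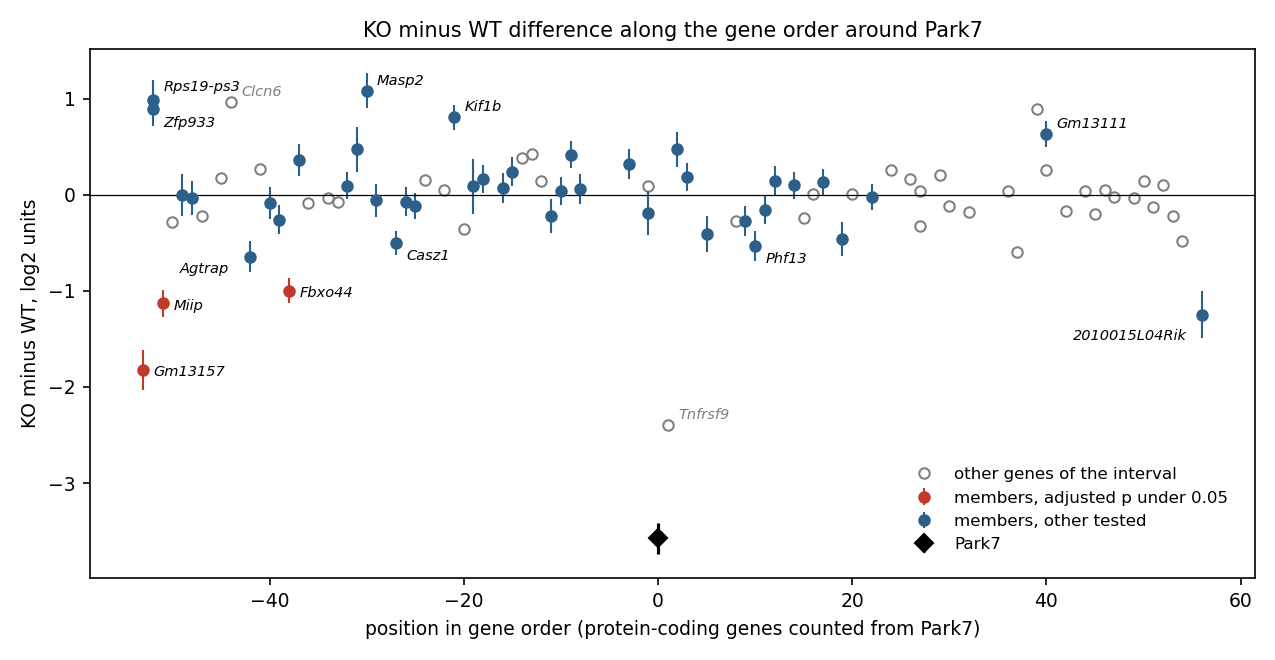
KO minus WT difference in log2 units (y axis; error bars, SE for members and Park7) by place in the gene order, counted in protein-coding genes from Park7 with negative numbers proximal (x axis). The members that passed, at -53, -51 and -38, lie away from Park7, and the members within 15 genes of it stay between -0.54 and 0.47. Tnfrsf9, next to Park7 and not a member, lies at -2.40.

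The other genes of the same interval are those left after the members were chosen with results of these arrays known. Of 62 such genes with a single symbol 42 were tested, and 2 passed (4.76%), 1 in each direction. Tnfrsf9, the costimulatory receptor 4-1BB and the next protein-coding gene after Park7, had 8.99, 9.73 and 8.15 in KO arrays, against 11.34, 11.49 and 11.23 in WT arrays (limma adjusted p = 0.0209). Clcn6, an endosomal chloride transporter, had 8.60, 8.74 and 9.01 in KO arrays, against 7.78, 7.75 and 7.91 in WT arrays (limma adjusted p = 0.0370). The groups did not overlap in 8 of the 42 (19.0%), against 17.4% of all tested genes, and the median size of a difference was 0.17, against 0.25 over the members; whether the lists differ was not tested. Members and other genes together, without Park7, gave 5 of 84 past the threshold (5.95%) and 25 without overlap (29.8%). The interval ends at the outermost members, and these counts include the members' own. They therefore describe the interval as drawn and do not estimate a share for the region. Outside the interval 0.232% of 13806 genes passed and 17.3% had no overlap.

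At the level of probe sets, 0 of the 625 passed limma over all 269751, of which 3 (0.00111%) passed, 0.000371% higher and 0.000741% lower in KO. An unadjusted p under 0.05 was found for 159 (25.4%), 90 higher and 69 lower, against 7.59% of all probe sets, 3.23% higher and 4.37% lower. The groups did not overlap in 193 of the 625 (30.9%), 106 higher and 87 lower in KO, against 13.8% of all probe sets. The smallest adjusted p was 0.109, for a Miip probe set that differed by -2.07. Each probe set was also set against the median of its gene's other probe sets, which asks whether single exons depart from their gene. Of 622 member probe sets 0 passed in limma (0 of 222938 in all), and 80 (12.9%) had an unadjusted p under 0.05, against 6.14% of all.

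Each of the 3 calls was lost in some of the fits with 1 array fewer, and those of Miip and Fbxo44 also under other processing. Gm13157 passed in 3 of the 6 fits that left out 1 array, Miip in 2 and Fbxo44 in 1, with adjusted p-values of up to 0.112, 0.112 and 0.128 in limma. Their differences stayed between -1.96 and -1.58, between -1.21 and -1.06 and between -1.06 and -0.94. No member passed without WT replicate 1, without WT replicate 2 or without WT replicate 3, 1 passed without KO replicate 3 (Gm13157), 2 without KO replicate 2 and 5 without KO replicate 1. Over all 13891 tested genes 38 (0.274%) passed with all arrays. Without WT replicates 1, 2 and 3 it was 4 (0.0288%), 4 (0.0288%) and 7 (0.0504%). Without KO replicates 3, 2 and 1 it was 11 (0.0792%), 31 (0.223%) and 37 (0.266%). With all arrays, Miip did not pass when only bright probe sets were used (limma adjusted p = 0.0658), nor Fbxo44 with a pseudocount of 64 (0.0501), and Fbxo44 was not among the genes tested with bright probe sets, the mean of probe sets or a filter at the 60th percentile. With all arrays, Gm13157 passed under each of 11 other settings. With 3 arrays a group, the smallest two-sided p of an exact permutation test is 0.10, so each call also draws on the spread that limma pools over genes.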

How the data were processed

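Per the labels, the deposited values are intensities that the authors summarised at exon level with PLIER, on Mouse Gene 2.0 ST arrays; their linear scale was read from the values. The submitters' processing notes name Affymetrix Expression Console 1.4. Background correction, normalization between arrays and genome build are not given in the sources used here. Groups and replicate numbers come from the titles, which number the samples within each group, and each sample was taken as 1 mouse. Values were taken as log2(intensity + 16) without further normalization. Of 269751 probe sets 233753 had 1 symbol, 5106 several and 30892 none in the platform annotation; genes are medians of probe sets with 1 symbol. RefSeq (GRCm38.p6) gave current names for 23122 of 23152 genes and the gene order. Genes with a mean under the 40th percentile (5.90) were left out, 9261 in all, 6 of them members. The comparison of KO with WT used limma 3.58.1 (R 4.3.3; lmFit, eBayes, two-sided), with Benjamini-Hochberg adjustment over all 13891 tested genes, or over all probe sets, and a threshold of 0.05. Probe sets were set against their gene where it had at least 4. The fits were tested on simulated arrays.

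The members, lists and tests were chosen with earlier results of these data known. Each member is accounted for; values per array are given for members past the threshold, for those without overlap and a difference of at least 0.5 log2 units, and for the 3 nearest to Park7 on each side, and for a few others chosen after their values were seen (Fbxo2, Fbxo6, Tardbp, H6pd and Acot7). Alternatives were other pseudocounts, filters, summaries, scalings, variance models, the replicate number as a block and each array left out. The number of arrays limits the precision.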

Additional observations from a re-analysis of the deposited data

How the results depend on the processing

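The count of 3 members past the threshold was 6 with quantile normalization, 6 with median centring, 5 with an intensity trend, 8 with array quality weights and 6 at an adjusted p of 0.10; it stayed within 1.5 times under the other pseudocounts, filters and summaries (3 to 4), though not with the same genes: Kif1b passed in place of Fbxo44 with a pseudocount of 64 and with a filter at the 60th percentile, and bright probe sets alone gave Acot7, Gm13157, Kif1b and Zfp933. Without single arrays it was 0 to 5. Whether the replicate numbers pair the mice cannot be settled with 3 mice a group. Correlations of deviations were 0.15, 0.17 and 0.010 for numbers 1 to 3, against -0.19 to 0.092 for unlike numbers. KO replicate 3 correlated best with WT replicate 2. With the replicate block 6 members passed. Over all tested genes 38 (0.274%) passed. It was 55 (0.396%) with quantile normalization, 52 (0.374%) with median centring and 52 (0.374%) with an intensity trend. Array quality weights gave 125 (0.9%), the replicate block 67 (0.482%) and an adjusted p of 0.10 gave 74 (0.533%). When a gene was the mean of its probe sets 60 (0.432%) passed. The other pseudocounts, the other filters and bright probe sets alone gave 31 to 44, and without single arrays 4 to 37 passed. All 17 tested named members and Park7 kept their direction, except Errfi1, whose difference was -0.48 to 0.011 without single arrays, above 0 without KO replicate 1. The 17 members without overlap were 10 with a filter at the 60th percentile, which tested fewer genes, and 18 to 23 without single arrays. With fewer arrays non-overlap is easier to reach: its share of all tested genes was 23.9% to 30.1% without single arrays. That share was 17.4% with all arrays and 18.7% with the filter at the 60th percentile. The members' median difference lay between -0.027 and 0.064 under other settings and between -0.0092 and 0.047 without single arrays. The 2 other genes of the interval past the threshold were 1 with a pseudocount of 1 and 1 without a filter, and 0 to 2 without single arrays. The 0 member probe sets past the threshold were 1 with a pseudocount of 1, 1 with a pseudocount of 64, 1 with median centring, 1 with an intensity trend and 2 with a filter at the 40th percentile, in Miip or Masp2. Where no cause is shown by the setting itself, the cause was not tested. Under other settings, array omissions included, 24 adjusted p-values of the 17 named members crossed below the threshold and 14 above it, with their direction kept. Dim genes, among them Fbxo44 and 2010015L04Rik in KO, limit what signal over background can show.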
